A study of Mus musculus with 6 samples.

Results

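Molecular chaperones and their partner proteins were followed in primary mouse liver sinusoidal endothelial cells, the fenestrated endothelium of the hepatic sinusoids. The set was defined by gene symbol, with earlier results of these data known. It took symbols that begin with the HSP stems (Hspa, Hspb, Hspd, Hspe, Hsph, Hsp90), the numbered Dnaja, Dnajb and Dnajc genes, Cct2 to Cct8, Bag1 to Bag6 and the numbered Hsf genes. Tcp1, Stip1, Ahsa1 and Chordc1 were added, and Hspa5, Hsp90b1, Dnajb9, Dnajb11 and Dnajc3, which act in the endoplasmic reticulum, were left out. This gave 94 of the 24421 genes listed. The name "cytosolic chaperones" covers them only in part. From general knowledge, 8 members were counted as encoding proteins of mitochondria and 6 as encoding proteins of the endoplasmic reticulum, and these counts may be incomplete.

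The pressure group (HP, 3 samples) came from livers of wild genotype, was held overnight on collagen I, starved of serum for 6 h, and then received hydrostatic pressure cycling from 101 to 135 kPa (absolute) at 0.01 Hz for 8 h. The control group (3 samples) has the same genotype, cell preparation, collagen I culture and 6 h serum starvation in its labels, which give no handling over those 8 h, so culture time and handling cannot be told apart from pressure. Cells of both groups had been selected with CD146 beads after removal of hepatocytes, dead cells and erythrocytes. The labels do not say whether samples of a group came from separate animals or cultures, so each p-value reflects only how far these samples differ, and that spread may be technical.

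Libraries held 12922959 to 17675569 counts under HP and 13986286 to 18655749 in controls, and genes with enough counts to test numbered 12892. HP replicate 3 stood apart, with correlations of log CPM to the other HP libraries of 0.9888 and 0.9913, where that pair gave 0.9957. Summed over 10 sinusoidal endothelial markers, levels were 4952 to 6013 CPM (counts scaled to a common library size with TMM factors) under HP and 6577 to 7006 CPM in controls. Of the 10, 1 passed as higher (10%) and 6 as lower (60%), where 33.7% and 35.1% of all tested genes did. Mcam was the one that rose (log2 change 0.97), and Oit3 fell most (means of 60.5 CPM under HP and 438 CPM in controls). Lyve1, Pecam1 and Cdh5 did not pass. Summed over 8 Kupffer cell and macrophage markers, levels were 5025 to 5421 CPM under HP and 5280.4 to 5797 CPM in controls. Of these, 2 were higher and 2 lower (25% each), below the shares of all tested genes. Most of this sum came from Cd5l and Marco, which moved in opposite directions. Cd5l passed as lower (means of 1885 CPM under HP and 2560 CPM in controls) and Marco as higher (2302 CPM under HP and 1991 CPM in controls). The 8 hepatocyte markers summed to 14.95 to 18.6 CPM under HP and 7.86 to 10.99 CPM in controls. The 8 stellate and mural cell markers summed to 146 to 157 CPM under HP and 123 to 130.3 CPM in controls. Most of it was Dcn (means of 132 CPM under HP and 104 CPM in controls). Of 7 tested, 1 passed as higher (Dcn, 14.3%) and 2 as lower (Des and Acta2, 28.6%), again below the shares of all tested genes. The lymphocyte, cholangiocyte and erythroid lists each summed to less than 5 CPM in every library. The part of these shifts in the results was not tested, and in bulk RNA fewer cells of a type and less RNA per cell cannot be told apart.

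Chaperones bind unfolded protein and release it through cycles of ATP use. HSP70 proteins take up clients delivered by J-domain (DNAJ) proteins, exchange nucleotide with the help of HSP110 and BAG proteins, and hand some clients to HSP90. The CCT ring folds actin and tubulin, the HSP60 and HSP10 chaperonin works inside mitochondria, and the transcription factor HSF1 raises many of these genes after heat or proteotoxic stress by binding heat shock elements.

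Of the 94 members, 80 had enough counts to test, 4 had no read in any library and the remaining 10 stayed below 1 CPM in every library. Under HP, 32 of the 80 rose and 29 fell (edgeR quasi-likelihood test, adjusted p under 0.05). That is 40% higher and 36.2% lower, where among all tested genes 33.7% were higher and 35.1% lower (68.8% in either direction), so both shares were near the background. All 3 HP values lay above all 3 control values in 34 members and below them in 29, where 34.9% and 37% of all tested genes did so. The median log2 fold change, HP over control, was -0.045 over the members and -0.015 over all tested genes. Changes of at least 2-fold were reached by 7 members that rose and 7 that fell, 8.75% each way, against 9.64% and 13.7% of all tested genes. The members thus did not move as a block, and the description below goes by role. The 12 largest rises and 12 largest falls described below were taken only from members whose groups did not overlap. Their separation was thus fixed by that choice. Signs near 0 depend on scaling. When only library totals set the scale, the median of all genes shifted by -0.21, and with upper-quartile factors by -0.11. Under library totals 24 members were higher and 37 lower, where 3129 of the 12892 tested genes were higher and 5887 lower. Counts under library totals given below are to be read against these, not against 33.7% and 35.1%. Calls in the same direction under all 4 scalings were made for 24 of the members that rose and 27 of those that fell.

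**Figure D1:**
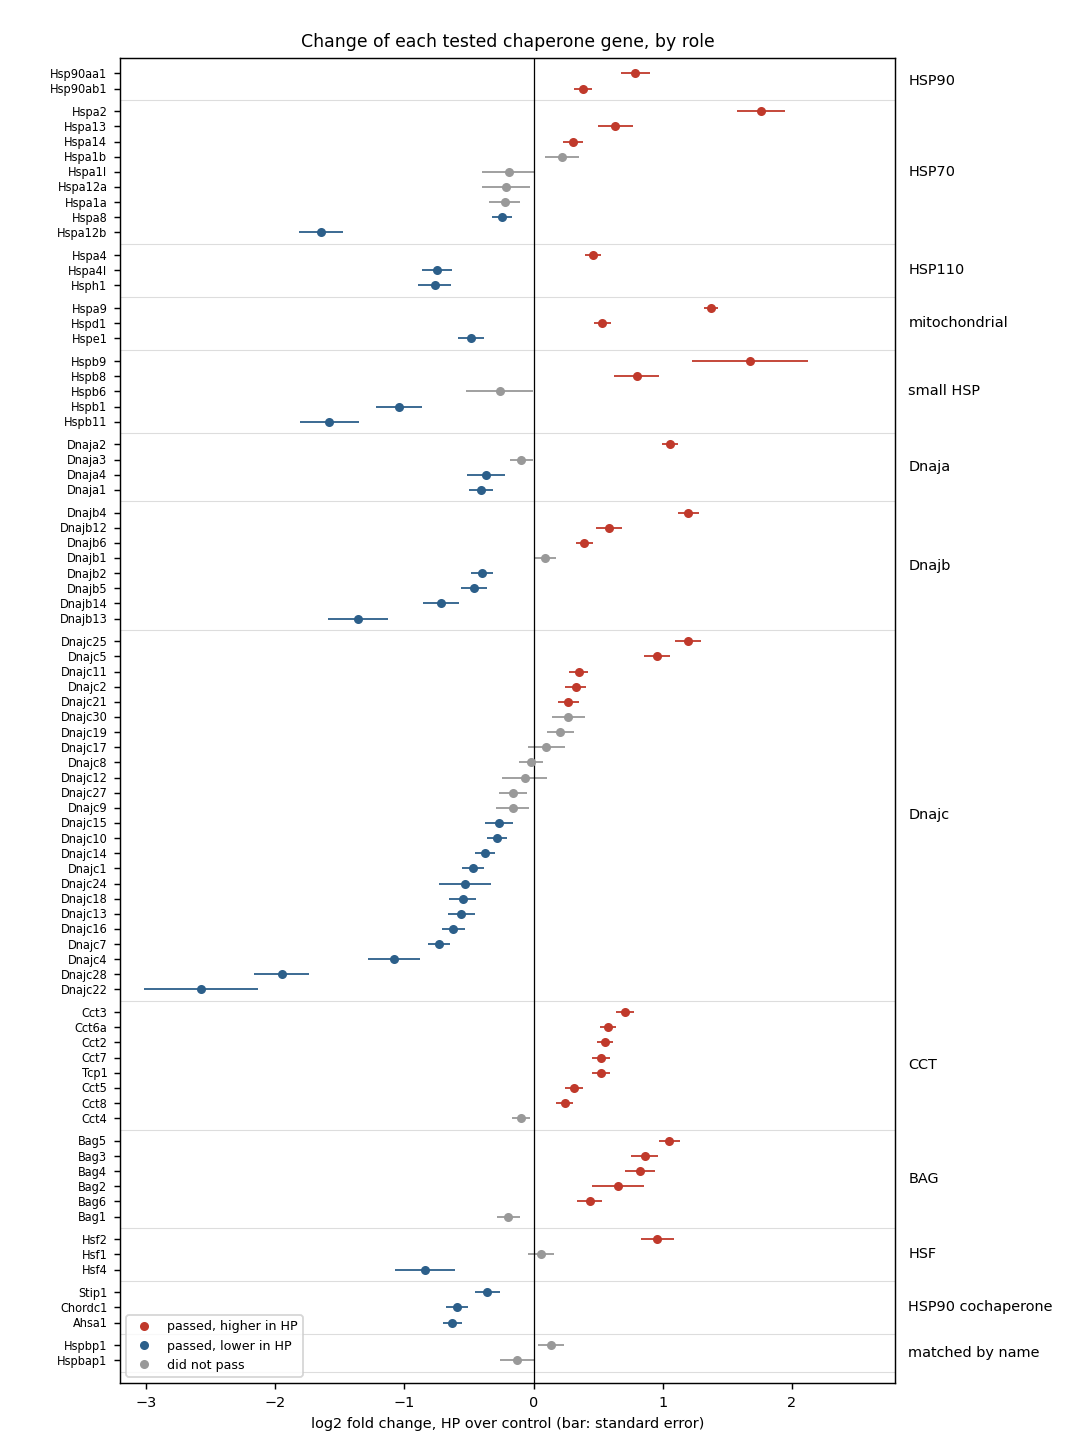
Log2 fold change of HP over control (horizontal axis) for the 80 tested members, grouped by role, with the standard error as a bar; red points rose, blue points fell and grey points did not pass. Both HSP90 genes and most CCT and BAG genes lie right of 0, and the 3 HSP90 cochaperones lie left of it.

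Total chaperone message took 1.66% to 1.77% of deposited counts in HP libraries and 1.56% to 1.59% in control libraries. Most of it came from few genes, and its make-up differed between the groups. The higher total does not show a general rise of the members, because without Hspa9 this share would overlap between the groups. Hspa9, the mitochondrial HSP70, supplied 12.9%, 13.6% and 14.2% of member counts in the HP libraries, against 6.54%, 6.59% and 6.63% in the control libraries. Hspa8, the constitutive cytosolic HSP70, supplied 12.8% to 14.4% under HP and 20.3% to 20.4% in controls. Hsp90ab1 supplied 17.8% to 19.3% under HP and 17.4% to 18.3% in controls, ranges that overlap. Per kilobase of exon, Hsp90ab1 stood first of the tested members in both groups (1137 CPM per kilobase under HP, 873 in controls), followed by Hspa8 (582 under HP, 690.2 in controls) and Hspa9 (577 under HP, 223 in controls).

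Heat shock factors did not move together. Hsf1, the main activator of the heat shock response, had 42.3, 34.2 and 36.7 CPM under HP, against 35.6, 36.6 and 36.7 CPM in controls. Its groups overlapped and its log2 change of 0.06 ± 0.097 (standard error, here and below) did not pass (adjusted p = 0.617), with a sign that turned negative under upper-quartile factors and library totals. Hsf2, a second factor that binds the same elements and can pair with HSF1, rose by 0.96 ± 0.13 (adjusted p = 6.68e-05). Its levels were 55.3, 50.5 and 38.8 CPM in HP libraries and 24.0, 24.3 and 26.4 CPM in control libraries, with HP replicate 3 the lowest of its group and still above every control. Hsf4, a factor best known from the lens, was low, at 1.28 to 2.18 CPM under HP and 2.93 to 3.50 CPM in controls, and fell (log2 change -0.84 ± 0.23, adjusted p = 0.00739). Hsf3 and Hsf5 had too few reads to test.

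Heat shock elements, inverted repeats of GAA units, were searched as GAANNTTCNNGAA on both strands (TTCNNGAANNTTC on the other) in the 300 bases around each RefSeq gene start, 250 before it and 50 after. Windows were found for 76 of the 94 members in GRCm38.p6, and Hsp90aa1, Hsp90ab1, Hspa8, Hspa9, Hsf1, Cct4 and 12 others were not searched here. The 3-unit element occurred in 5 of these 76 (6.58%), against 179 of all 27025 genes with a window (0.662%). Hspd1 and Hspe1 share the same site, which was counted for each of them. The shorter GAANNTTC or TTCNNGAA, contained in the longer one, occurred in 23 members (30.3%) and in 17.0% of all genes. Among the members searched, Hspd1, Hspe1, Dnajb6, Hsph1 and Chordc1 held the 3-unit element, and they are printed because the direction of change differed among genes with this shared feature. Capitals mark the element, sometimes several overlapping copies, 5′ to 3′ on the strand given:
Hspd1 and Hspe1, chr1:55088053-55088082, plus strand: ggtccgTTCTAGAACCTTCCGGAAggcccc
Dnajb6, chr5:29735844-29735872, plus strand: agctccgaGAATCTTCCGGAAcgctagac
Hsph1, chr5:149636280-149636308, minus strand: gctgcagaTTCTGGAAAGTTCtcctcagt
Chordc1, chr9:18292260-18292288, plus strand: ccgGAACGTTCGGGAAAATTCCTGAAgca
Of these, Hspd1 and Dnajb6 rose, and Hspe1, Hsph1 and Chordc1 fell. A match to these letters is a description of the window, not a shown binding site.

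The mitochondrial chaperones included the most abundant member that more than doubled. Hspa9 (mortalin), which pulls proteins into the mitochondrial matrix and folds them there, had 2522.5, 2458 and 2483 CPM in HP libraries, against 949, 973 and 963 CPM in control libraries. Every HP value lay far above every control value, and the replicates within a group differed little. The log2 change was 1.37 ± 0.056 (adjusted p = 5.78e-08), at the 94.9th percentile of all tested genes. Hspa9 lies on chromosome 18 from 34937414 to 34954357 (GRCm38, minus strand).

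Hspd1 and Hspe1, which encode the HSP60 ring and its HSP10 lid, stand head to head on chromosome 1, Hspd1 from 55077835 to 55088243 on the minus strand and Hspe1 from 55088132 to 55091307 on the plus strand. The element printed above lies between a pair of their RefSeq starts that are 215 bases apart, 126 bases from the Hspd1 start and 71 from the Hspe1 start. They moved in opposite directions. Hspd1 had 579, 567 and 544 CPM under HP, against 379, 389.8 and 399 CPM in controls, and rose by 0.53 ± 0.064 on the log2 scale (adjusted p = 3.32e-05). Hspe1 had 83.4, 84.1 and 104 CPM under HP, against 120.3, 130.1 and 129.7 CPM in controls, and fell (log2 change -0.48 ± 0.098, adjusted p = 0.00120). Neither gene showed an overlap between groups. Within a library, the log2 ratio of Hspe1 to Hspd1 counts was -2.80, -2.75 and -2.38 under HP, against -1.66, -1.58 and -1.62 in controls, a ratio chosen after its values were seen and given without a test. GENCODE M21 exons of these genes overlap by 112 bases on opposite strands, and the strand setting of the authors' counting is not given in the sources used here, so reads of that stretch cannot be assigned with certainty.

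The J-domain members counted here as mitochondrial (Dnaja3, Dnajc11, Dnajc15, Dnajc19 and Dnajc30) changed less. Dnajc11, a protein of the mitochondrial membranes, rose (107, 103 and 114 CPM under HP, 87.8, 84.8 and 82.1 CPM in controls, log2 change 0.35 ± 0.076), a call lost with library totals. Dnajc15 and Dnajc19 belong to the import machinery that stimulates mortalin. Dnajc19 stood at 23.6, 25.7 and 28.5 CPM under HP and 20.9, 23.1 and 23.3 CPM in controls, without overlap but without passing (adjusted p = 0.0985). Dnajc15 was at the threshold as lower (log2 change -0.27 ± 0.11, adjusted p = 0.04995) and was called in 6 of 14 fits. Dnaja3, at 64.1 to 78.9 CPM under HP and 73.6 to 77.4 CPM in controls, did not pass (adjusted p = 0.373), nor did Dnajc30 (adjusted p = 0.0858). Outside the rule, a list of 10 mitochondrial folding and proteolysis genes had 6 members that rose and 2 that fell, with a median log2 change of 0.46, or 60% and 20% where 33.7% and 35.1% of all tested genes were called in those directions. Afg3l2, an inner-membrane protease subunit, rose by 0.84 ± 0.073, and Lonp1, the matrix protease, by 0.56 ± 0.078. The 2 that fell were Trap1 (log2 change -0.56 ± 0.079) and Htra2 (-0.44 ± 0.089).

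Both cytosolic HSP90 genes rose, where 33.7% of all tested genes did. Hsp90aa1, the stress-inducible form, had 1546, 1341 and 1067 CPM under HP, against 756, 734 and 802 CPM in controls (log2 change 0.79 ± 0.11, adjusted p = 0.000127). HP replicate 3 was the lowest HP library and still above all controls. Hsp90ab1, the constitutive form, had 3754, 3221 and 3254 CPM in HP libraries and 2621, 2704 and 2529.9 CPM in control libraries, again without overlap, and rose by 0.38 ± 0.071 (adjusted p = 0.000716). The log2 ratio of Hsp90aa1 to Hsp90ab1 counts in a library, which does not depend on scaling, averaged -1.38 ± 0.194 under HP and -1.78 ± 0.113 in controls (SD, n = 3 each), and the HP values of -1.28, -1.26 and -1.61 all lay above the highest control value of -1.66. An exact two-sided permutation test gave p = 0.1, the smallest that 3 against 3 samples allow.

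The 3 HSP90 cochaperones in the set fell, where 35.1% of all tested genes did, while HSP90 itself rose. Ahsa1, the activator of the HSP90 ATPase, had 98.2, 92.0 and 95.2 CPM under HP and 147, 155 and 139.9 CPM in controls (log2 change -0.63 ± 0.075, adjusted p = 3.27e-05). Chordc1, an HSP90-binding protein, had 74.8, 75.7 and 66.97 CPM under HP and 107, 104 and 117 CPM in controls (log2 change -0.59 ± 0.084). Stip1, the adaptor that joins HSP70 to HSP90, had 219, 210.2 and 272 CPM under HP and 293, 306 and 301 CPM in controls (log2 change -0.36 ± 0.097, adjusted p = 0.00675). All HP values of these genes were below all control values, as in 37% of all tested genes, and the calls stood under all 4 scalings. None of the 3 rose in edgeR, at an unadjusted p under 0.05 or in DESeq2. Among 15 further HSP90 partners outside the rule, 1 rose (6.67%) and 4 fell (26.7%), both below the shares of all tested genes (33.7% and 35.1%). With library totals 8 fell, where 5887 of all 12892 tested genes did. Ppid, the cyclophilin of HSP90 complexes, rose by 0.74 ± 0.087, and Fkbp5, an immunophilin that dampens the glucocorticoid receptor, fell (log2 change -0.94 ± 0.12).

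HSP70 genes outside mitochondria split, with 3 of 9 higher (33.3%) and 2 lower (22.2%). Among all tested genes 33.7% were higher and 35.1% lower, so these shares were near or below the background. Hspa8 had 2800.1, 2466 and 2244 CPM under HP, against 2944, 3015 and 2947 CPM in controls, and fell by a small amount (log2 change -0.25 ± 0.078, adjusted p = 0.0167, but 0.0540 without HP replicate 2). The inducible HSP70 genes, which rise steeply after heat, were low and did not pass. Hspa1a had 17.9, 14.0 and 14.2 CPM under HP and 18.8, 18.2 and 16.8 CPM in controls (adjusted p = 0.120). Hspa1b had 24.1, 17.7 and 18.2 CPM under HP and 17.9, 17.3 and 16.5 CPM in controls (adjusted p = 0.153). The groups overlapped for each of them. Both copies are near-identical and carried fractional counts in 5 of 6 libraries, so their split is uncertain, and a call hinged on single libraries or on scaling. Hspa1a passed as lower without HP replicate 1 (adjusted p = 0.0196), with upper-quartile factors (0.0280) and with library totals (0.00634), and Hspa1b passed as higher without HP replicate 3 (adjusted p = 0.0299). Summed and set against Hspa8, the log2 ratio was -6.15 ± 0.115 under HP and -6.40 ± 0.0717 in controls (SD, n = 3 each, exact permutation p = 0.1). Neither inducible copy passed while Hspa8 fell, so the higher ratio does not show a rise of the inducible genes.

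Less abundant HSP70 relatives showed the largest changes of the family. Hspa2, best known from sperm development, had 14.1, 9.18 and 9.91 CPM under HP, against 3.30, 3.25 and 3.24 CPM in controls (log2 change 1.76 ± 0.19, adjusted p = 1.32e-05). Hspa12b, a distant relative enriched in endothelium, had 3.68, 2.43 and 2.62 CPM under HP, against 9.59, 9.17 and 8.72 CPM in controls (log2 change -1.65 ± 0.17, adjusted p = 1.08e-05). Neither gene's groups overlapped. Hspa12a, the paralog of Hspa12b, stood at 2.29 to 3.05 CPM under HP and 2.83 to 3.15 CPM in controls (adjusted p = 0.328), and Hspa1l also did not pass (adjusted p = 0.412). Hspa13, a microsomal HSP70, rose (141, 139 and 96.2 CPM under HP, 80.4, 75.0 and 87.8 CPM in controls, log2 change 0.63 ± 0.14). Hspa14, the HSP70 of the ribosome-associated complex, rose by 0.30 ± 0.079, and Dnajc2, its J-domain partner on the ribosome, by 0.33 ± 0.082. Both calls were lost with library totals, and that of Hspa14 with upper-quartile factors too (adjusted p = 0.0633).

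Nucleotide exchange factors of the HSP110 group went apart. Hsph1, the heat-inducible member, had 154, 125 and 102 CPM under HP, against 218, 210.2 and 222 CPM in controls, and fell (log2 change -0.77 ± 0.13, adjusted p = 0.000307). Hspa4, the constitutive member, had 413, 413 and 404 CPM under HP, against 299.9, 299 and 296 CPM in controls, and rose by 0.46 ± 0.062 (adjusted p = 8.00e-05). Neither overlapped between groups. Hspa4l, a lower relative, had 12.8, 11.7 and 10.6 CPM under HP and 19.8, 17.9 and 21.6 CPM in controls (log2 change -0.75 ± 0.12). Within a library, the log2 ratio of Hsph1 to Hspa4 counts was -1.42, -1.72 and -1.99 under HP, against -0.46, -0.51 and -0.42 in controls (exact two-sided permutation p = 0.1).

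**Figure D2:**
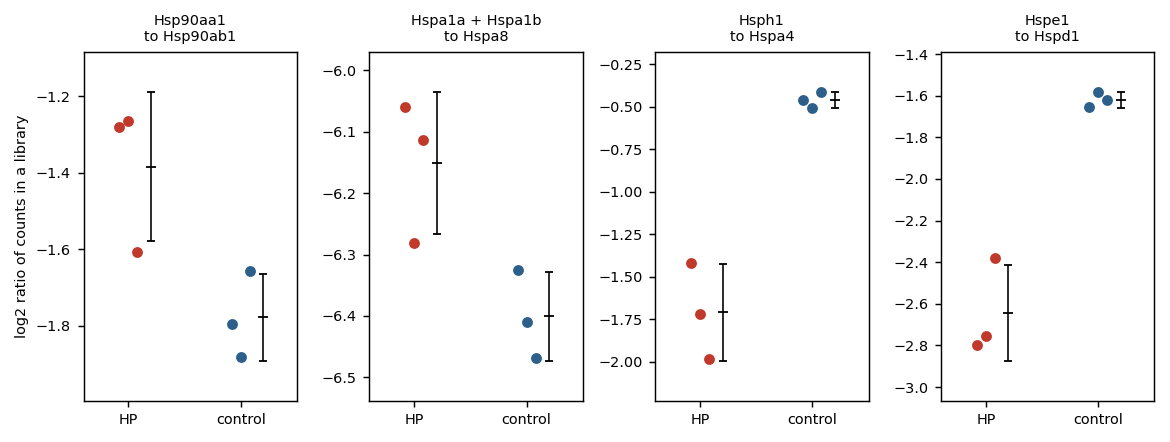
Log2 ratio of the counts of 2 related genes within each library, HP left and control right in each panel, with the mean and SD (n = 3) beside the points; each panel has its own vertical scale. The ratio is higher in HP for Hsp90aa1 to Hsp90ab1 and for the inducible to the constitutive HSP70, and lower in HP for Hsph1 to Hspa4 and Hspe1 to Hspd1, with no overlap in any panel. In the HSP70 panel Hspa8, the denominator, fell and neither inducible gene passed.

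BAG proteins, which also bind HSP70 through a BAG domain and sort its clients, mostly rose: 5 of 6 were higher and 0 lower in edgeR (1 lower at an unadjusted p under 0.05, 0 in DESeq2), with a median log2 change of 0.74. That is 83.3% higher, where 33.7% of all tested genes were higher and 35.1% lower. With library totals 3 were higher and 1 lower, where 3129 of all 12892 tested genes were higher and 5887 lower. Bag3, which steers clients to autophagy, had 234, 195 and 191 CPM under HP, against 119, 122 and 101 CPM in controls (log2 change 0.86 ± 0.10, adjusted p = 3.56e-05). Bag5 had 87.5, 81.3 and 81.1 CPM under HP and 39.2, 43.0 and 38.5 CPM in controls (log2 change 1.05 ± 0.082). Bag4, a silencer of death receptor signalling, had 34.6, 36.0 and 28.0 CPM under HP and 19.9, 18.7 and 17.0 CPM in controls (log2 change 0.83 ± 0.12). In all 3 genes every HP value lay above every control value, as in 34.9% of all tested genes. These 3 also belong to the largest rises, which were taken only without overlap. Bag6, which guards tail-anchored membrane proteins, rose by 0.43 ± 0.099 (229 to 289 CPM under HP, 177 to 210.3 CPM in controls), a call lost with library totals (adjusted p = 0.0545). Bag2, at 3.83 to 5.36 CPM under HP and 2.35 to 3.50 CPM in controls, lost its call with library totals and without HP replicate 1 or control replicate 2 (adjusted p = 0.0726, 0.0579 and 0.0641). Bag1 did not pass (log2 change -0.19 ± 0.087, adjusted p = 0.0684), but passed as lower without HP replicate 3 (adjusted p = 0.00123) and with upper-quartile factors and library totals (adjusted p = 0.0139 and 0.00217).

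The CCT ring, which folds actin and tubulin and is built from 8 different subunits, had 7 of 8 tested genes higher and 0 lower (edgeR; also 0 lower at an unadjusted p under 0.05 and in DESeq2), or 87.5% higher where 33.7% of all tested genes were. The median log2 change was 0.52. Cct3 had 507, 481 and 454 CPM under HP, against 296, 297 and 291 CPM in controls, and showed the highest log2 change of the ring (0.71 ± 0.068, adjusted p = 7.09e-06). Cct6a (0.58 ± 0.064), Cct2 (0.55 ± 0.061), Cct7 (0.52 ± 0.068) and Tcp1 (0.52 ± 0.068) followed with close values, and their HP and control ranges did not overlap. Cct2 was the most abundant, with 515, 515 and 501 CPM under HP and 348, 348 and 346 CPM in controls. Cct5 (0.31 ± 0.068) and Cct8 (0.24 ± 0.065) rose less.

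Cct4 was the subunit that did not rise, with 245, 272 and 263 CPM under HP and 275, 286 and 272 CPM in controls (log2 change -0.10 ± 0.070, adjusted p = 0.240). With upper-quartile factors and library totals it passed as lower (adjusted p = 0.0266 and 0.00310), Cct8 lost its call under both, and Cct5 lost its call under library totals, so that 5 subunits were higher and 1 lower there. Per kilobase of exon, subunit levels ran from 61.8 (Cct4) to 199.5 CPM (Cct2) under HP and from 43.8 (Cct7) to 135.8 CPM (Cct2) in controls, and Cct4 ranked 8 of 8 under HP and 5 of 8 in controls. Exonic length was summed over all annotated transcripts, which can understate the level of genes with many of them. Cct6b, a testis form, and Cct8l1 had too few reads to test. Of 10 prefoldin and CCT cofactor genes outside the rule, 3 rose (30%) and 1 fell (10%), where 33.7% of all tested genes rose and 35.1% fell. With library totals 2 rose and 4 fell, where 3129 of all 12892 tested genes rose and 5887 fell. Pfdn4, a prefoldin subunit, rose by 0.82 ± 0.086, and Txndc9, a phosducin-like regulator of CCT, by 0.59 ± 0.072.

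**Figure D3:**
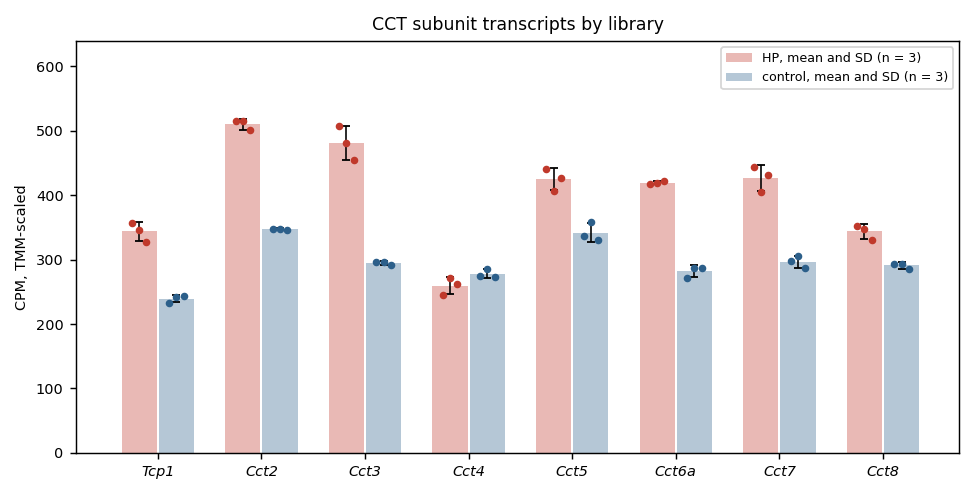
CPM of the 8 CCT subunit transcripts, HP in red left of control in blue; bars are means, whiskers SDs (n = 3) and points single libraries. All HP points lie above the control points except for Cct4, where they lie below them without passing the test.

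J-domain genes, 36 of them tested, went down more often than up. Falls numbered 18 (50%) and rises 9 (25%), where 35.1% of all tested genes fell and 33.7% rose. Under library totals 22 fell and 6 rose, where 5887 of all 12892 tested genes fell and 3129 rose. The median log2 change was -0.21. Class by class, 1 of 4 Dnaja genes rose and 2 fell, 3 of 8 Dnajb genes rose and 4 fell, and 5 of 24 Dnajc genes rose and 12 fell.

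Among cytosolic J-domain proteins that carry clients to HSP70, single genes rose while close relatives did not. Dnaja2 had 519, 495 and 496 CPM under HP, against 237, 241.5 and 248 CPM in controls, and rose by 1.06 ± 0.065 on the log2 scale (adjusted p = 4.14e-07). Dnaja1 had 299, 274 and 232 CPM under HP, against 343, 349 and 374 CPM in controls, and fell (log2 change -0.41 ± 0.094, adjusted p = 0.00282). The groups were apart for both genes, in opposite directions. For Dnaja2 this was required by its choice as a large rise, and Dnaja1 was set beside it with its values known. Dnaja4 was called as lower (adjusted p = 0.0450), with overlapping groups and in 8 of the 14 fits.

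Dnajb4 had 79.5, 81.7 and 77.2 CPM under HP, against 32.1, 36.1 and 35.7 CPM in controls (log2 change 1.20 ± 0.082, adjusted p = 7.77e-07). By contrast Dnajb1, the classical heat-inducible HSP40, stood at 51.0, 58.0 and 55.0 CPM under HP and 52.0, 50.8 and 51.1 CPM in controls, with overlap and no call (adjusted p = 0.331). Dnajb6, a suppressor of protein aggregation whose window holds the element printed above, rose by 0.39 ± 0.066 (268 to 278 CPM under HP, 203 to 210.1 CPM in controls). Dnajb2, known for its role in neurons, and Dnajb5 fell, with log2 changes of -0.40 and -0.46. Of the Dnajb pair counted in the endoplasmic reticulum, Dnajb12 rose by 0.58 ± 0.10, and Dnajb14 fell, with 7.73, 8.08 and 10.9 CPM under HP and 13.7, 14.99 and 14.9 CPM in controls (log2 change -0.72 ± 0.14).

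In the Dnajc class, whose members share little beyond the J-domain, Dnajc5 and Dnajc25 stood out as rises. Dnajc5, the cysteine string protein of secretory vesicles, had 294, 284 and 225 CPM under HP, against 144, 132 and 138 CPM in controls (log2 change 0.96 ± 0.10, adjusted p = 1.46e-05). Dnajc25 had 32.4, 29.2 and 28.2 CPM under HP and 13.7, 13.2 and 12.3 CPM in controls (log2 change 1.20 ± 0.10). Groups were apart for both, as the choice of the largest rises required. Exons of Dnajc25 overlap those of an annotated protein-coding gene on the same strand. Dnajc21, a ribosome biogenesis factor, rose by 0.27 ± 0.084, a call lost with upper-quartile factors, with library totals and without control replicate 1.

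Falls in the class were led, among members above 5 CPM, by Dnajc7, which bridges HSP70 and HSP90. It had 99.4, 102 and 116 CPM under HP, against 172, 183 and 171 CPM in controls (log2 change -0.73 ± 0.083, adjusted p = 2.27e-05). Dnajc13, a clathrin-uncoating partner of HSC70 on endosomes, had 144, 147 and 119 CPM under HP and 212, 178 and 215 CPM in controls (log2 change -0.56 ± 0.10). Dnajc16 had 23.2, 27.1 and 24.9 CPM under HP and 39.2, 37.5 and 39.0 CPM in controls (log2 change -0.62 ± 0.092). Dnajc18 had 22.1, 26.1 and 28.4 CPM under HP and 37.2, 36.7 and 38.0 CPM in controls (log2 change -0.55 ± 0.10). By the way these 4 genes were chosen, their HP values were all below the control values. In the endoplasmic reticulum, Dnajc10, a disulfide reductase, Dnajc1 and Dnajc14 also fell, with log2 changes of -0.28, -0.47 and -0.38.

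Some members with larger changes were scarce and are named after their values were seen. Dnajc28 had 35, 30 and 13 counts under HP, against 123, 132 and 106 counts in controls (log2 change -1.95 ± 0.21), and Dnajc22 had 2, 3 and 2 counts under HP, against 14, 21 and 17 in controls. Dnajc4, with 37 to 50 counts under HP and 97 to 150 in controls, fell too (log2 change -1.08 ± 0.20). Dnajb13, a protein of sperm and cilia, had 25 to 52 counts under HP and 98 to 139 counts in controls, and its exons overlap those of Ucp2 on the opposite strand.

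Small heat shock proteins, which hold unfolded protein without ATP, were sparse in these cells. Of 5 tested, 2 rose and 2 fell (40% each), where 33.7% of all tested genes rose and 35.1% fell. Hspb1 (HSP25), usually the abundant stress-inducible member, had 9.16, 5.71 and 8.19 CPM under HP, against 14.0, 18.3 and 14.9 CPM in controls (log2 change -1.04 ± 0.18, adjusted p = 0.000361). Hspb8, the partner of BAG3, had 10.97, 7.29 and 11.1 CPM under HP, against 5.94, 5.60 and 5.22 CPM in controls (log2 change 0.80 ± 0.17, adjusted p = 0.00201). Hspb1 and Hspb8 changed in opposite directions, and their choice among the largest changes required groups without overlap. Hspb11, a part of the intraflagellar transport complex, was scarce and fell, with 17 to 21 counts under HP and 52 to 83 counts in controls, and Hspb9, a testis form, had 16 to 63 counts under HP and 8 to 23 counts in controls and was called as higher (adjusted p = 0.00669). Hspb6 did not pass (adjusted p = 0.387), and Hspb2, Hspb3 and Hspb7 had too few reads. Hspbp1, an HSP70 exchange factor, and Hspbap1, which the rule took by their symbols, did not pass (adjusted p = 0.269 and 0.388).

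**Figure D4:**
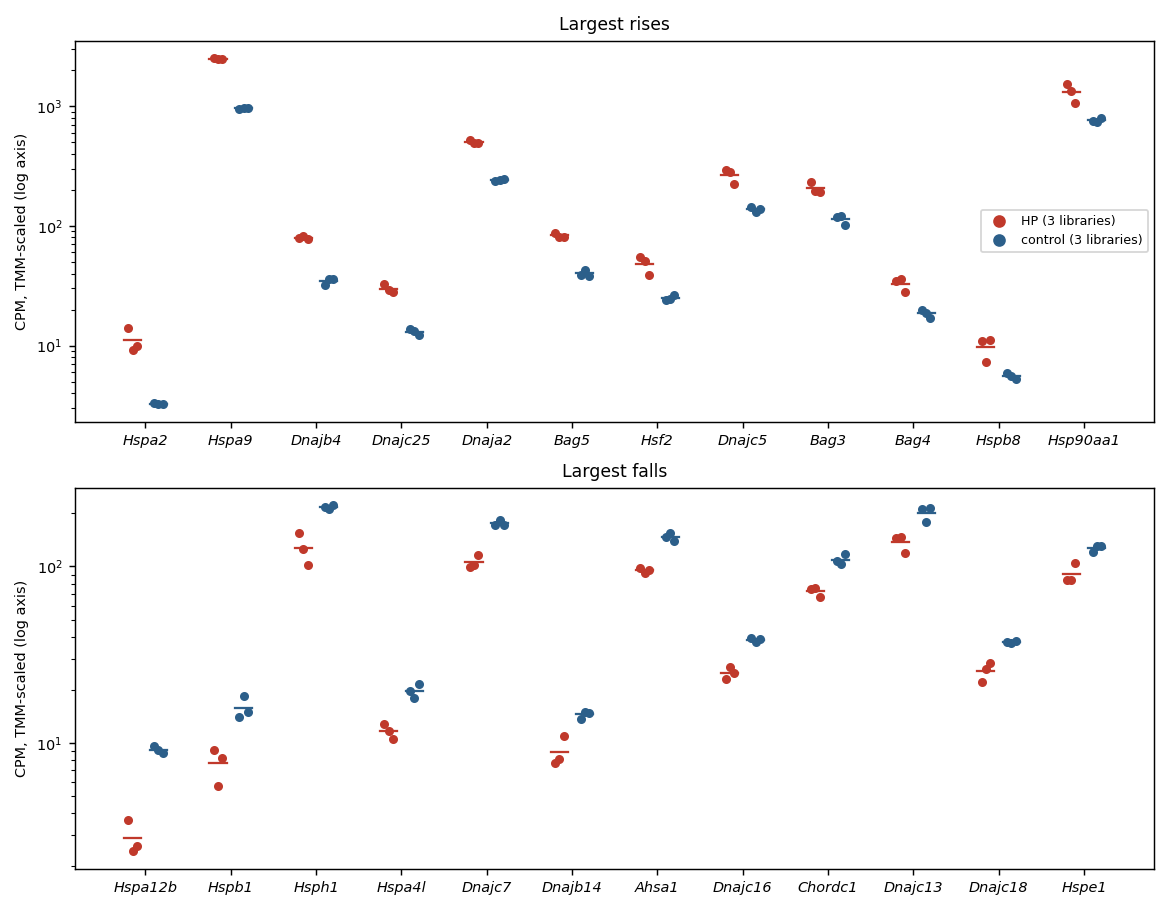
TMM-scaled CPM on a log axis for the 12 members with the largest rises (top) and the 12 with the largest falls (bottom) among those with a mean of at least 5 CPM and no overlap between groups; points are single libraries, HP in red left of control in blue, and lines are means (n = 3). By the way they were chosen, no HP point crosses a control point, and Hspa9 and Hsp90aa1 are the most abundant of the rises.

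Partners outside the set moved likewise in both directions. Of 7 HSP70 partner genes, 4 rose and 1 fell (4 and 3 with library totals). Sgtb, a tetratricopeptide cochaperone, rose by 1.53 ± 0.15, and Ubqln2, a ubiquilin that ferries clients to the proteasome, by 0.69 ± 0.088. Of 5 other genes tied to the heat shock response, 3 rose and 2 fell. Ubb, which encodes ubiquitin, rose by 1.33 ± 0.063 on the log2 scale (2175 CPM under HP, 868 CPM in controls, means, n = 3 each). Across the 47 tested genes of all 5 outside lists, 17 rose (36.2%) and 10 fell (21.3%). Among all tested genes 33.7% rose and 35.1% fell. Under library totals 15 of the 47 rose and 19 fell, where 3129 of all 12892 tested genes rose and 5887 fell.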

How the data were processed

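For the 6 samples, mRNA libraries that keep strand were sequenced as single reads, per the labels' protocols. What the authors deposited for each sample was a table of expected counts, which may be fractional, by gene symbol. The submitters' processing notes name TopHat2 2.2.1, Cufflinks 2.2.1 and mm10. Which program counted, how it treated strand and which annotation it read is not given in the sources used here. Fractions occurred in 29 of the 94 members, and exons of 32 members overlap a gene on the opposite strand in GENCODE M21 (GRCm38).

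Values were rounded to whole counts. After filterByExpr (at least 10 counts, 15 in total), libraries were scaled by TMM and groups compared with edgeR 4.0.16 (quasi-likelihood, two-sided, no covariates, R 4.3.3). P-values were adjusted by Benjamini-Hochberg across the whole table, with calls at 0.05. The standard error is the log2 change divided by the square root of F. Alternatives were DESeq2 1.42.0, other scalings and filters, a replicate block, a stricter threshold, a fold minimum and leaving out each sample. Members and lists were chosen with earlier results of these data known. The rule for full values took the 12 largest rises and the 12 largest falls among members of at least 5 CPM without overlap, the most abundant member of each role, all CCT, HSF, BAG, HSP90 and HSP70 genes, and the 2 smallest p of each outside list. The values of 1 gene that the last part of this rule took are not reported here.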

Additional observations from a re-analysis of the deposited data

How the results depend on the processing

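Member counts kept within 1.5 times their value under most settings. Exceptions came from a minimum of 2-fold, which by construction left 3006 of 8871 called genes, 7 members higher, 7 lower, 0 CCT subunits higher, 3 J-domain members higher and 4 lower, 3 HSP genes higher and 3 lower, and 3 outside-list genes higher and 0 lower. CCT subunits called as lower numbered 1 with upper-quartile factors and 1 with library totals, and outside-list genes called as lower numbered 19 with library totals. Leaving out each sample in turn gave 31 to 33 members higher and 25 to 32 lower, and 7981 to 9746 genes in all. It gave 7 CCT subunits higher and 0 lower each time, 8 to 11 J-domain members higher and 15 to 20 lower, and 10 to 11 HSP genes higher and 6 to 8 lower. Outside lists gave 15 to 20 higher and 10 to 14 lower. Differences of log2 ratios stayed at 0.33 to 0.51 (Hsp90aa1 to Hsp90ab1), 0.20 to 0.31 (inducible HSP70 to Hspa8) and -1.39 to -1.11 (Hsph1 to Hspa4).

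Hsf1 turned sign without passing with upper-quartile factors (-0.0569), library totals (-0.16) and on leaving out single samples (-0.0331 to 0.1265), and Hspbp1 with library totals (-0.0799). The sign also differed among the 4 scalings for Dnajb1, Dnajc8, Dnajc17 and Dnajc19. Like Cct4, Hspa1a and Bag1, the uncalled Dnaja3, Dnajc8, Dnajc9, Dnajc27 and Hspbap1 passed as lower under library totals (adjusted p = 0.0154, 0.0468, 0.026, 0.0102 and 0.0448). Deviations of same-numbered samples from their group means correlated at 0.17, -0.301 and -0.184, with mixed signs. With 3 samples per group such values cannot exclude a shared animal or batch, and the labels do not say. With the number as a replicate block, 32 members were higher and 27 lower, 8384 genes were called, and the exact sign-flip permutation test of the ratios gave p = 0.25, the smallest it allows. DESeq2 gave 32 higher and 27 lower.

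Depth limits the 14 members below 1 CPM, which were not tested.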
